A study of Homo sapiens with 52 samples.

Results

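The data described here are bulk mRNA sequencing of HS578T cells transfected with siNRP1#5, a small interfering RNA (siRNA) against neuropilin-1 (NRP1), compared with HS578T cells transfected with the non-targeting control siRNA siNT. The members were taken from the sample labels. They are 3 siNRP1#5 and 3 siNT samples, 6 of the 52 samples of a series in which HS578T and 2 further claudin-low lines of breast cancer, SUM159PT and MDA-MB-231, received siRNAs or lentiviral small hairpin RNAs (shRNAs). Both groups received 20 nM siRNA by reverse transfection, without selection of transfected cells, and RNA was taken 72 hrs later. HS578T is an established triple-negative breast cancer line, so the 6 samples are labelled as 1 genetic background (the reads of other lines found in them are given below), and the study describes samples of a group as independent biological replicates. The p-values of genes measure the spread between samples within groups only. This spread was estimated over all samples of a line (17 for HS578T), or over all 52 for differences between lines. HS578T cells with siNRP1#3 (3 samples, same dose and time), and with shNRP1#5 and shNT (3 samples each, puromycin-selected), are used for comparison. So are the siNRP1#5 and siNT samples of MDA-MB-231 (3 each) and of SUM159PT (only 2 siNRP1#5 samples, and 3 siNT).

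NRP1 is a cell-surface coreceptor for class 3 semaphorins, with plexins as signalling partners, and for vascular endothelial growth factors. Splicing and alternative polyadenylation also give secreted, soluble forms that lack the transmembrane domain. Claudin-low tumours lack tight-junction claudins and E-cadherin and have mesenchymal features. A siRNA guide strand directs an Argonaute protein to fully matching mRNA, which is cut, and through its seed, the bases near its 5′ end, it can also lower other mRNAs that match the seed in their 3′ UTR, as a microRNA does.

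The siRNA target sites are shown because they decide which NRP1 transcripts can be cut. Both lie in coding exons on the minus strand of chromosome 10 (GRCh38), that of siNRP1#5 at chr10:33263779-33263797 in exon 4 of the 17 exons of the main transmembrane transcript (ENST00000374867.7) and that of siNRP1#3 at chr10:33185638-33185656 in exon 15. They are written 5′ to 3′ in the sense direction, and capitals mark the bases that pair with bases 2 to 8 of the guide strand.
siNRP1#5 target: cagccttgaatGCACTTAt
siNRP1#3 target: taaccacatttCACAAGAa
The study describes siNRP1#5 and shNRP1#5 as identical in sequence, and siNRP1#3 as specific for transmembrane NRP1.

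The siNRP1#5 guide strand is shown with microRNAs that hold its 7-base seed, since those share part of its possible targets. Capitals mark the run UAAGUGC, which lies at bases 2 to 8 of the guide and at bases 1 to 7 of the microRNAs (RefSeq, GRCh38.p14).
siNRP1#5 guide: aUAAGUGCauucaaggcug
hsa-miR-302a-3p: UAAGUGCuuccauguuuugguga
hsa-miR-302b-3p: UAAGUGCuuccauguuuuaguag
hsa-miR-302c-3p: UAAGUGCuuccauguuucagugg
hsa-miR-302d-3p: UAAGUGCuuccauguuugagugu
hsa-miR-302e: UAAGUGCuuccaugcuu
None of the 2370 mature human microRNAs in the table (0) held the run at bases 2 to 8, the position that defines a seed family, and 5 held it within their first 9 bases. The guide is therefore offset by 1 base from the miR-302 family.

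The 6 libraries held 30001734 to 52749295 expected counts over genes (25310443 to 72003442 in the series), of which mitochondrial genes took 3.83 to 5.53%. Levels are given as TMM-normalised CPM (counts scaled to a common library total), which allow a gene to be compared between samples but not with another gene. In TPM (the same with scaling for transcript length), the defining features of the line were present in siNT: VIM lay between 5214 and 5836 TPM and CD44 between 2243 and 2578, while CLDN3, CDH1, ESR1 and PGR did not exceed 0.05 TPM. ERBB2 was at 13.0, 15.7 and 23.3 TPM.

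The siNRP1#5 libraries went against their label in one respect: they held transcripts that HS578T cells barely express and MDA-MB-231 cells express well. Over 83 genes with at most 0.5 CPM in HS578T non-targeting (NT) controls and at least 20 CPM in MDA-MB-231 NT controls, the median level was 17.1, 14.3 and 8.65% of the MDA-MB-231 NT level in siNRP1#5 replicates 1, 2 and 3. It was 0.551, 0.715 and 1.41% in siNT, 2.11 to 5.32% in siNRP1#3 and 0.1 to 0.362% in the HS578T shRNA libraries. None of the 83 markers (0) was at 0 in any siNRP1#5 library, and single markers there ranged from 0.914 to 51.4% of the MDA-MB-231 level. Replicate 2 also held SUM159PT markers (28 genes) at a median of 4.87%, against at most 0.11% in the other HS578T libraries. Epithelial genes moved with these markers. CLDN4, a tight-junction claudin at 165 TPM in MDA-MB-231 siNT, was at 1.22, 1.02 and 2.34 TPM in siNT and at 25.6, 16.2 and 9.15 TPM in siNRP1#5, in the order of the marker share. EPCAM, an epithelial adhesion molecule, went from 0.21, 0.04 and 0.32 TPM to 4.45, 2.97 and 1.02 TPM.

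**Figure D1:**
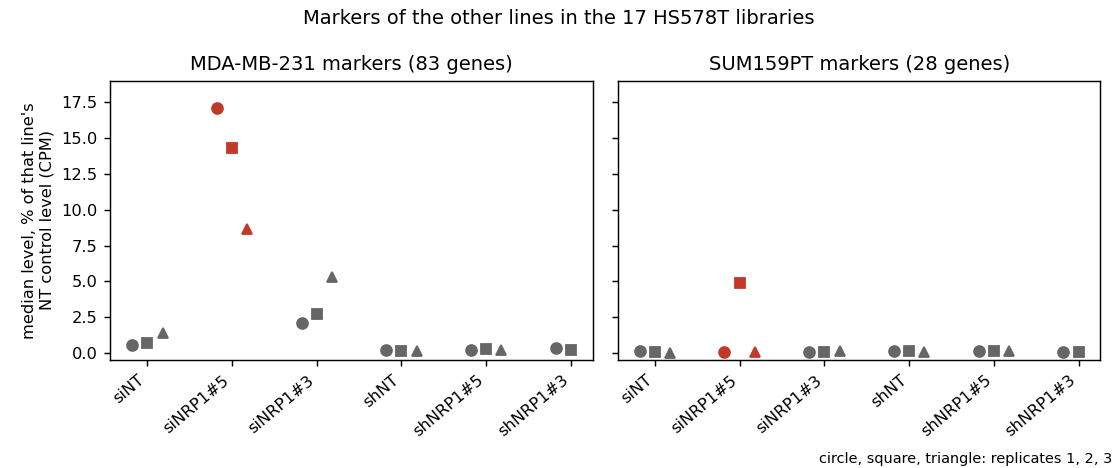
Median level of MDA-MB-231 marker genes (left, 83 genes) and SUM159PT marker genes (right, 28 genes) in each of the 17 HS578T libraries, as a percent of the level in the NT controls of that line. Symbols are replicates 1, 2 and 3 and red marks siNRP1#5, which held MDA-MB-231 markers at 8.65 to 17.1% in all 3 libraries and SUM159PT markers at 4.87% in replicate 2.

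Results are therefore given for the counts as deposited and, beside them, after subtraction of the MDA-MB-231 and SUM159PT group profiles closest to each library's marker levels. The subtraction took 22, 24.6 and 8.72% of the counts of the siNRP1#5 libraries and 0.703, 1.09 and 1.67% of those of siNT. Genes are also divided by whether MDA-MB-231 NT controls express them more highly than HS578T siNT, since mixing in MDA-MB-231 RNA raises the CPM of such genes and lowers that of the others. Subtraction stops at 0, so it can turn a rise of a gene that is high in MDA-MB-231 into a fall (CLDN4 was at a log2 fold change of 2.93 before and -9.1 after it). Because whole cultures were sequenced, fewer cells of a type and less RNA per cell cannot be told apart.

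NRP1 (ENSG00000099250.18) was strongly reduced. Its level was 118, 101 and 127 CPM in siNT and 11.3, 17.2 and 26.2 CPM in siNRP1#5, so that the groups did not overlap. The mean fell from 115.2 ± 13.4 to 18.3 ± 7.5 CPM (SD, n = 3 each). In edgeR's quasi-likelihood test over 19661 genes with Benjamini-Hochberg adjustment, the log2 fold change was -2.66 (SE 0.26, adjusted p = 3.68e-05). MDA-MB-231 cells express NRP1 too (73.8 CPM in siNT, 177 in shNT and 2.45 in siNRP1#5), and the log2 fold change was -3.86 after subtraction of the closest profiles and -2.35 after subtraction of the MDA-MB-231 siNRP1#5 profile. Within HS578T, the fall was deeper with siNRP1#5 than with siNRP1#3, whose own log2 fold change was -1.2 (adjusted p = 0.0101); the direct difference was -1.46 (SE 0.251, adjusted p = 0.00162). The shRNA of the same sequence gave -2.09 (140 CPM in shNT, 33.2 in shNRP1#5), and its effect was not distinguishable from that of the siRNA (difference -0.57, SE 0.346, adjusted p = 0.536). In the counts as deposited the fall was larger in the other lines, at -4.88 in MDA-MB-231 and -4.31 in SUM159PT. The differences from HS578T were 2.25 (adjusted p = 2.08e-05) and 1.67 (adjusted p = 0.00222). Both were tested without subtraction only, and the part of the reads of other lines in them was not tested.

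Both classes of NRP1 transcript fell. The 4 transmembrane transcripts summed to 15.1, 11.2 and 14.4 TPM in siNT and to 1.19, 2.54 and 2.77 TPM in siNRP1#5, a mean of 16% of the control. The 5 soluble transcripts summed to 13.4, 9.5 and 11.6 TPM and to 0.95, 1.66 and 2.1 TPM, a mean of 13.7% of the control. Neither class overlapped between groups, and on log2(TPM + 0.1) the changes were -2.67 and -2.85, each with an exact two-sided permutation p = 0.1, the smallest that 3 against 3 samples can give. The main transmembrane transcript, ENST00000374867.7, had 33.7, 34.9 and 35.7% of the gene's TPM in siNT and 40.9, 48.5 and 37.9% in siNRP1#5. The main soluble transcript, ENST00000374822.8, had 31.5, 28.6 and 26.2% and 22.7, 31.2 and 29.5%. The shares of the transmembrane transcript were thus higher in every siNRP1#5 library than in siNT, while those of the soluble one overlapped. No reads of other lines were subtracted from these transcript values. MDA-MB-231 NT controls express NRP1 (73.8 CPM in siNT, 177 in shNT). The part of their reads in the remaining levels and shares of the siNRP1#5 libraries was not tested.

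**Figure D2:**
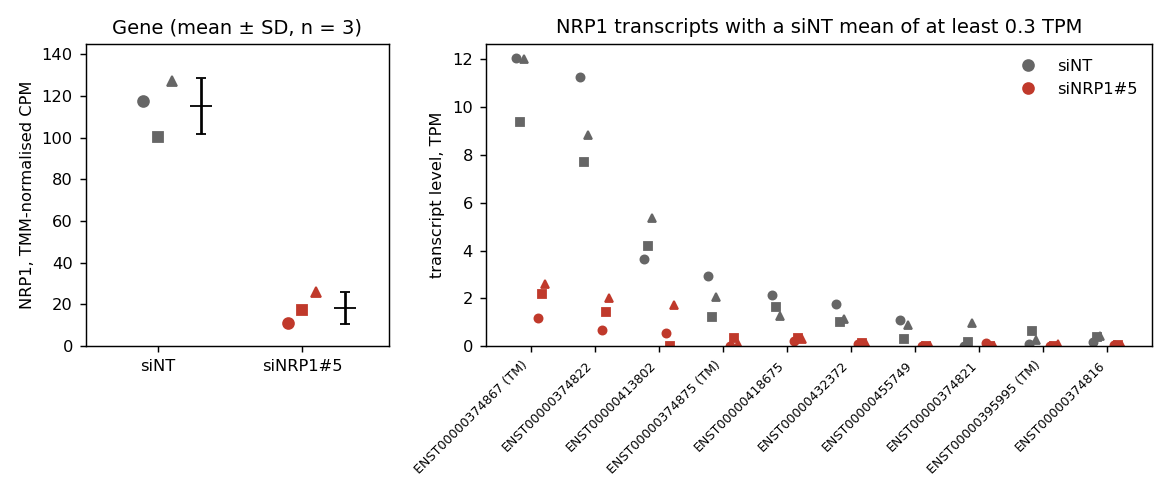
Left, NRP1 in TMM-normalised CPM in the 3 siNT (grey) and 3 siNRP1#5 (red) libraries, with mean ± SD. Right, TPM of NRP1 transcripts in the same libraries (TM, transmembrane); the main transmembrane transcript fell from between 9.38 and 12.0 TPM to between 1.19 and 2.61 TPM, and the main soluble one from between 7.69 and 11.3 TPM to between 0.66 and 2.03 TPM.

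Of 19661 genes tested, 3667 (18.7%) passed an adjusted p of 0.05, with 1678 (8.53%) lower and 1989 (10.1%) higher in siNRP1#5. After subtraction, 2262 of 19214 genes passed (11.8%), 1368 lower (7.12%) and 894 higher (4.65%). Of the 1989 genes that rose, 1814 were higher in MDA-MB-231 NT controls, and 488 of these kept a significant rise after subtraction, while 13.9% of the 1491 that could still be tested had the opposite sign. The other 175 (0.89% of the genes tested) were not higher there, and 164 of them kept a significant rise after subtraction, with 0 of opposite sign. Taking off a profile in which a gene is not higher can hardly remove its rise. How the 175 were chosen therefore largely set this outcome, and it is no test of their rises. Of these 175 genes, 93 (0.473%) were not higher in SUM159PT NT controls either. Among the 1678 genes that fell, 956 kept a significant fall and 0 changed sign. Of these 1678, 1465 were not higher in MDA-MB-231 NT controls, the class that admixed reads lower, and 750 of the 1465 kept a significant fall. The median log2 fold change was -0.35 over the 9552 genes not higher in MDA-MB-231 and 0.38 over the 10109 higher there, and -0.11 and 0.1 after subtraction. The number of calls moved with single libraries: 2072 genes passed without siNT replicate 2, 2189 without siNT replicate 3, 2305 without siNRP1#5 replicate 2 and 2437 without siNRP1#5 replicate 3.

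The 12 genes with the largest fall had siNT means between 5.03 and 23.2 CPM and lost most of their level. They were taken from 1051 genes that passed the test, had at least 5 CPM in siNT and did not overlap between groups. MYBPH, a myosin-binding protein, was at 22.5, 14.9 and 8.42 CPM in siNT and 0.707, 0.6 and 0.0781 in siNRP1#5 (log2 fold change -5.07, SE 0.858, adjusted p = 0.00106). CHI3L1, a secreted chitinase-like glycoprotein, was at 23.2, 7.76 and 10.8 CPM and 1.53, 0.861 and 0.677 (log2 fold change -3.78, SE 0.588, adjusted p = 0.0006). SYNC, a muscle intermediate filament protein, was at 25.9, 17.5 and 26.1 CPM and 1.29, 2.71 and 2.63 (log2 fold change -3.38, SE 0.292, adjusted p = 3.53e-05). In all 3 the highest siNRP1#5 library was several-fold below the lowest siNT library, and MDA-MB-231 siNT held them at only 0.301, 0.0312 and 2.94 CPM. CHI3L1 was at 182 CPM in SUM159PT siNT and at 31.3 CPM in SUM159PT siNRP1#5. The latter was the SUM159PT profile closest to replicate 2, the HS578T siNRP1#5 library with SUM159PT markers, which held CHI3L1 at 0.861 CPM.

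P2RY6, a receptor for extracellular UDP, was nearly constant within each group, at 12.8, 13.6 and 13.9 CPM in siNT and 1.73, 1.62 and 1.95 in siNRP1#5 (log2 fold change -2.93, SE 0.67, adjusted p = 0.00708). ZMYND10, needed to assemble the dynein arms of motile cilia, was at 8.06, 10.7 and 9.3 CPM and 1.06, 1.44 and 1.61 (log2 fold change -2.77, SE 0.424, adjusted p = 0.000556). IL16, a lymphocyte chemoattractant, was at 5.79, 5.02 and 4.29 CPM and 0.393, 0.939 and 0.547 (log2 fold change -2.99, SE 0.495, adjusted p = 0.000891). These values leave a wide gap between the groups for each gene. The other 6 were CYTL1 (a small secreted protein), CYS1 (cystin, of the primary cilium), THAP7-AS1 (a non-coding RNA antisense to THAP7), TLX2 (a homeobox transcription factor), SLC14A1 (a urea transporter) and UFSP1 (a protease of the UFM1 pathway), with log2 fold changes from -2.86 to -2.69. All 12 also passed the test after subtraction, with log2 fold changes from -5.06 to -2.18. The choice of the largest falls made this likely, since the subtraction took at most 24.6% of the counts of a library. With 1 library left out, CYS1 missed the threshold without siNRP1#5 replicate 3 (-2.59, adjusted p = 0.0621) and SLC14A1 without siNRP1#5 replicate 1 (-2.39) or 3 (-2.62), while the other 10 kept their call.

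siNRP1#3 gave its own values for the same genes, against the siNT samples that both comparisons share. MYBPH (-7.67), SLC14A1 (-5.07), CHI3L1 (-4.42), CYTL1 (-2.99) and THAP7-AS1 (-1.22) passed the test there, in a comparison that called 914 genes (4.65%), 460 of them lower (2.34%). SYNC was at -0.46 (adjusted p = 0.356) and TLX2 at -0.1 (adjusted p = 0.933). Tested directly between the siRNAs, without the siNT samples, 3564 genes differed (18.1%), and 2921 did after subtraction (15.2%). SYNC was lower with siNRP1#5 by a log2 difference of -2.92 (adjusted p = 6.93e-05), TLX2 by -2.6 (adjusted p = 0.00214) and IL16 by -1.98 (adjusted p = 0.0112). UFSP1 (-1.73), THAP7-AS1 (-1.49) and ZMYND10 (-1.35) were lower as well, though ZMYND10 did not pass after subtraction (-1.08, adjusted p = 0.0889). SLC14A1 was higher with siNRP1#5 than with siNRP1#3 (2.38, adjusted p = 0.0452), while MYBPH (2.59, SE 1.09, adjusted p = 0.108) and CHI3L1 (0.64, adjusted p = 0.484) did not pass.

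The genes that rose without being higher in MDA-MB-231 NT included some already abundant in siNT. The 12 with the largest fold change were taken from 113 that passed the test, had at least 5 CPM in siNRP1#5 and did not overlap between groups. TNFAIP6, a secreted hyaluronan-binding protein, was at 4.2, 2.98 and 1.42 CPM in siNT and 16.2, 21.7 and 23.5 in siNRP1#5 (log2 fold change 2.83, SE 0.457, adjusted p = 0.000751), and at 31.5 CPM in SUM159PT siNT. MAP3K7CL, a short relative of the kinase TAK1, was at 2.19, 2.22 and 2.3 CPM and 11, 8.71 and 19.5 (log2 fold change 2.54, SE 0.324, adjusted p = 0.000163). RABGGTB, a subunit of the enzyme that attaches geranylgeranyl groups to Rab proteins, was at 54.1, 51.4 and 17 CPM and 121, 195 and 375 (log2 fold change 2.49, SE 0.446, adjusted p = 0.00153). In each of these 3 genes the siNRP1#5 library with the fewest MDA-MB-231 marker reads, replicate 3, was the highest. MAP3K7CL also rose with siNRP1#5 in MDA-MB-231, from 1.93 to 12.5 CPM (log2 fold change 2.72, adjusted p = 4.26e-07 in edgeR's test). MDA-MB-231 siNRP1#5 held TNFAIP6 at 0.016 CPM and RABGGTB at 33 CPM. The part of the reads of other lines in the 3 rises was not tested beyond the subtraction.

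TRIB3, a pseudokinase induced by amino acid and endoplasmic reticulum stress, was at 175, 266 and 136 CPM in siNT and 1173, 689.6 and 444 in siNRP1#5 (log2 fold change 2, SE 0.487, adjusted p = 0.01). FGF21, a hormone induced under the same stresses, was at 2.23, 2.36 and 1.1 CPM and 12.4, 7.12 and 6.3 (log2 fold change 2.18, SE 0.582, adjusted p = 0.0162). TSC22D3, a glucocorticoid-induced regulator, was at 79.3, 96.4 and 96.7 CPM and 457, 407 and 216 (log2 fold change 1.99, SE 0.516, adjusted p = 0.0144). Here replicate 3 was the lowest of the siNRP1#5 libraries, still above every siNT library. SIK1 (a salt-inducible kinase, log2 fold change 2.07), RSRP1 (an arginine- and serine-rich protein, 2.16), TFPI (an inhibitor of coagulation, 1.92) and DUSP8 (a phosphatase of stress-activated kinases, 1.9) complete the group with HMGCS1, given below, and KRT75. KRT75, a keratin, rested on 1 library: it was at 0.0379, 0.234 and 0.284 CPM in siNT and 0.314, 15.8 and 0.833 in siNRP1#5 (log2 fold change 4.85), where the high value is replicate 2, and SUM159PT siNT held it at 136 CPM. After subtraction KRT75 was at 2.62 (adjusted p = 0.227), whereas the other 11 kept their call, which the choice of genes not higher in MDA-MB-231 made likely. Several of these calls depended on single libraries. TFPI missed the threshold in 5 of the 6 fits that left out 1 library (log2 fold change 1.51 to 2.19, adjusted p 0.0525 to 0.137), all but that without siNRP1#5 replicate 1. DUSP8 missed it without siNT replicate 1 (1.82), siNT replicate 3 (1.87) or siNRP1#5 replicate 3 (1.65), FGF21 without siNT replicate 3 (1.9) or siNRP1#5 replicate 1 (1.81), and HMGCS1 without replicate 3 of siNT (1.72) or of siNRP1#5 (1.46). TSC22D3 missed it without siNT replicate 1 (1.9) or 3 (2.03), TRIB3 without siNT replicate 3 (1.8) and KRT75 without siNRP1#5 replicate 2 (1.61).

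**Figure D3:**
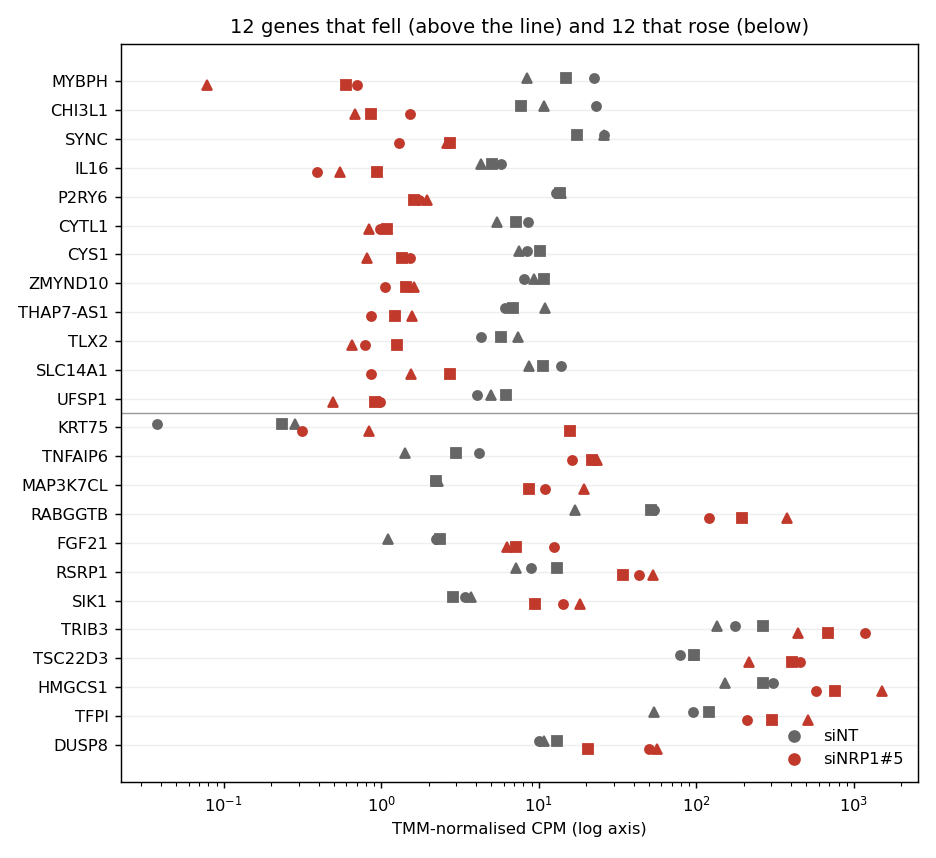
TMM-normalised CPM (log axis) of the 12 genes that fell most and the 12 that rose most among genes not higher in MDA-MB-231, in 3 siNT (grey) and 3 siNRP1#5 (red) libraries. Circles, squares and triangles are replicates 1, 2 and 3. No gene has overlapping groups, which the choice of the genes required, and KRT75 spans 0.314 to 15.8 CPM in siNRP1#5.

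Against siNT, siNRP1#3 gave log2 fold changes of 3.62 for FGF21, 2.69 for SIK1, 2.48 for MAP3K7CL, 1.97 for TRIB3 and 1.95 for RABGGTB, all past the test, in a comparison that called 454 genes higher (2.31%). For TNFAIP6 it gave 1.12 (adjusted p = 0.161), and TNFAIP6 was higher with siNRP1#5 than with siNRP1#3 by 1.72 (adjusted p = 0.0136). For the other genes that rose, the direct difference between the siRNAs did not pass, for example 0.06 (SE 0.301) for MAP3K7CL and 0.03 (SE 0.47) for TRIB3. After subtraction it passed for TSC22D3 (1.63, adjusted p = 0.049) and HMGCS1 (1.49, adjusted p = 0.0428) as well as for TNFAIP6 (2.08, adjusted p = 0.00667).

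In the list for the ATF4 branch and the unfolded protein response, which cells switch on when amino acids run short or unfolded proteins collect in the endoplasmic reticulum, most members passed as higher. Of 18 genes in the list, 10 rose (10.1% of all genes tested did) and 0 fell, and 4 of the 10 were not higher in MDA-MB-231 NT (0.89% of all genes tested rose without being higher there). The list's median log2 fold change was 1.15 against 0.03 over all genes tested. After subtraction 11 rose (4.65% of all genes did), 0 fell and the median was 1.46. HSPA5, the main chaperone of the endoplasmic reticulum, was at 519, 578 and 767 CPM in siNT and 3521, 2298 and 3944 in siNRP1#5 (log2 fold change 2.39, SE 0.246, adjusted p = 3.68e-05). DDIT3, the stress transcription factor CHOP, was at 21.9, 28.5 and 20.8 CPM and 96.4, 104 and 166 (log2 fold change 2.36, SE 0.243, adjusted p = 3.68e-05). ATF3, another stress-induced transcription factor, was at 12.4, 18.1 and 12.9 CPM and 68.5, 56 and 79.2 (log2 fold change 2.23, SE 0.273, adjusted p = 0.000136). MDA-MB-231 siNT and siNRP1#5 held HSPA5 at means of 1552 and 1098 CPM, DDIT3 at 26.9 and 29.1, and ATF3 at 34.1 and 31.5. The part of the reads of other lines in these rises was not tested beyond the subtraction. HSPA5, DDIT3 and ATF3 were chosen for display after their values had been seen.

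HERPUD1, which helps to degrade misfolded proteins, was at 100.3, 135 and 113 CPM in siNT and 285, 258 and 376 in siNRP1#5 (log2 fold change 1.4, SE 0.288, adjusted p = 0.00372). ATF4, the transcription factor itself, was at 545, 724 and 598 CPM and 1071, 772 and 1108 (log2 fold change 0.66, SE 0.198, adjusted p = 0.029). Its groups did not overlap, but replicate 2 came close to siNT. HSP90B1, the endoplasmic reticulum chaperone GRP94, was at 926, 719.7 and 439 CPM and 1242, 1125 and 1940.0 (log2 fold change 1.04, SE 0.326, adjusted p = 0.0347). XBP1 (0.24) and ASNS (0.45), targets of the same responses, did not pass. ATF4 missed the threshold in 4 of the 6 fits without 1 library (0.57 to 0.63, without replicate 1 or 3 of either group), and HSP90B1 without siNT replicate 2 (1.07) or 3 (0.8) or siNRP1#5 replicate 3 (0.77). With siNRP1#3, 8 of the 18 rose against the same siNT samples (median 1.13), where 2.31% of all genes rose. Directly compared, siNRP1#5 exceeded siNRP1#3 for HSPA5 (1.13, adjusted p = 0.00498) and HSP90B1 (1.06, adjusted p = 0.0336) and for no other gene of the list (2 of 18, and 3 of 18 after subtraction). In that comparison 9.21% of all genes tested were higher with siNRP1#5, and 6.56% after subtraction. With shNRP1#5 against shNT, 1 of the 18 rose, ATF3 (1.22, adjusted p = 0.0389), where 0.275% of all genes rose. With siNRP1#5 in MDA-MB-231 2 rose and 1 fell, where 14.4% of all genes tested rose and 14.9% fell. In SUM159PT 0 passed in either direction, where 9% of all genes tested rose and 8.89% fell.

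GDF15, a secreted stress cytokine on the p53 list, was at 12.6, 15.5 and 8.64 CPM in siNT and 164, 82.6 and 69 in siNRP1#5 (log2 fold change 3.11, SE 0.666, adjusted p = 0.00516), and was chosen after its values had been seen. MDA-MB-231 cells held it at 16.6 CPM in siNT and 68.5 in siNRP1#5. The p53 targets as a list did not move with it: of 14, CDKN1A and GDF15 rose, XPC fell and the median was 0.13, where 10.1% of all genes tested rose and 8.53% fell.

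Sterol synthesis genes rose in part. Of 21 cholesterol and fatty acid synthesis genes, 4 rose (10.1% of all genes tested did), all 4 not higher in MDA-MB-231 NT (0.89% of all genes), and 0 fell (median 0.43). After subtraction 6 rose (4.65% of all genes did) and the median was 0.57. HMGCS1, an enzyme of the early mevalonate pathway, was at 308, 267 and 151 CPM in siNT and 574, 756 and 1515 in siNRP1#5 (log2 fold change 1.97, SE 0.482, adjusted p = 0.0104). SQLE, which begins the sterol-specific steps, was at 264, 310.5 and 282 CPM and 636, 509.7 and 724 (log2 fold change 1.13, SE 0.256, adjusted p = 0.00675). MSMO1, a demethylating enzyme of the later sterol steps, was at 155, 174 and 129 CPM and 322, 365 and 604 (log2 fold change 1.49, SE 0.336, adjusted p = 0.00645). Among the siNRP1#5 libraries all 3 were highest in replicate 3. IDI1, an isomerase of isoprenoid synthesis, is the other that rose (1.38, not past the threshold without replicate 3 of siNT, at 1.09, or of siNRP1#5, at 1.04), while the fatty acid genes FASN (0.2), ACLY (0.2) and SCD (0.48) and the regulators SREBF2 (0.14) and INSIG1 (0.17) did not pass. siNRP1#3 gave 0 of 21 in either direction against siNT (median 0.19), where 2.31% of all genes tested rose and 2.34% fell. MSMO1 (1.09, adjusted p = 0.0323) was higher with siNRP1#5 than with siNRP1#3, 1 of 21 (4 of 21 after subtraction). Between the siRNAs 9.21% of all genes tested were higher with siNRP1#5, and 6.56% after subtraction.

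**Figure D4:**
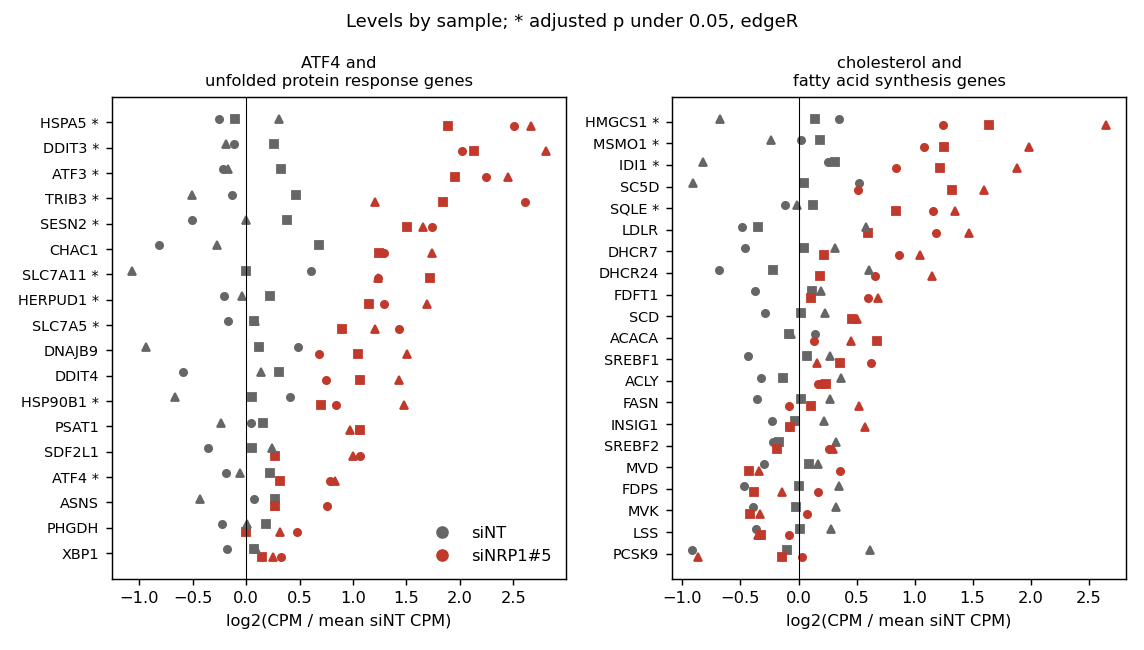
Level of each gene of the ATF4 and unfolded protein response list (left, 18 genes) and of the cholesterol and fatty acid list (right, 21 genes) in the 6 libraries, as log2 of CPM over the siNT mean. Grey is siNT, red siNRP1#5, symbols are replicates 1, 2 and 3, and an asterisk marks an adjusted p under 0.05 in edgeR (10 genes left, 4 right).

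The partners of NRP1 did not move as one. Of 27 tested ligands, receptors and coreceptors (NRP1 included), 4 fell, one of them the targeted gene, and 5 rose, where 8.53% of all genes tested fell and 10.1% rose, and the median was 0.12. PLXNA4, a plexin that forms semaphorin receptors with neuropilins, was at 36.1, 23.4 and 40.2 CPM in siNT and 4.55, 4.8 and 6.95 in siNRP1#5 (log2 fold change -2.61, SE 0.482, adjusted p = 0.00185). PLXNB1, a receptor for class 4 semaphorins, was at 25.1, 24.1 and 31.9 CPM and 9.3, 8.66 and 7.89 (log2 fold change -1.65, SE 0.283, adjusted p = 0.00114). PLXNA3, a coreceptor for class 3 semaphorins, was at 36.1, 36.2 and 31.7 CPM and 21.5, 19.2 and 20.9 (log2 fold change -0.76, SE 0.186, adjusted p = 0.00997). None of these groups overlapped, and the calls held after subtraction (-2.25, -1.65 and -0.81). With siNRP1#3 against siNT, PLXNA4 was at -2.16 (adjusted p = 0.0156), PLXNB1 at -0.45 and PLXNA3 at 0.03, and the direct difference between siRNAs passed for PLXNB1 (-1.2, adjusted p = 0.00882) and PLXNA3 (-0.79, adjusted p = 0.00918). In MDA-MB-231, siNRP1#5 gave -1 for PLXNB1 and 1.31 for PLXNA4, the latter from 0.749 to 1.83 CPM.

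MET, the receptor for hepatocyte growth factor, rose from 18.6, 18.6 and 16.6 CPM to 59, 67 and 98.6 (log2 fold change 2.06, SE 0.345, adjusted p = 0.000981, and 2.11 after subtraction). SEMA3D, a class 3 semaphorin, was at 0.379, 0.467 and 0.0631 CPM and 2.94, 3.68 and 6.12 (log2 fold change 3.79, SE 0.765, adjusted p = 0.00322), and also rose with shNRP1#5 (3.22, adjusted p = 0.0418). Both are higher in MDA-MB-231 than in HS578T NT controls, at 99 CPM for MET and 5.5 for SEMA3D in MDA-MB-231 siNRP1#5, and both were chosen after their values had been seen. PGF, a ligand of the VEGF family, rose from 52.6, 65.1 and 61.8 CPM to 135, 88.4 and 103 (log2 fold change 0.86, SE 0.268, adjusted p = 0.0344). The paralogue NRP2 (-0.52, SE 0.286, adjusted p = 0.218), VEGFA (0.23, adjusted p = 0.494), PDGFRB (0.19) and EGFR (-0.29) did not pass.

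Of 20 integrin and laminin-332 genes, which hold cells to the matrix, 4 fell and 2 rose (median 0), where 8.53% of all genes tested fell and 10.1% rose. After subtraction 2 of 19 fell and 0 rose, where 7.12% of all genes fell. ITGA10, a collagen receptor subunit, was at 32.1, 35 and 37.3 CPM in siNT and 8.99, 7.96 and 6.41 in siNRP1#5 (log2 fold change -2.16, SE 0.313, adjusted p = 0.000403). ITGB3, the beta subunit of the vitronectin receptor, was at 51.6, 45.8 and 62.4 CPM and 16.9, 17.7 and 22.7 (log2 fold change -1.48, SE 0.221, adjusted p = 0.000459). Both passed after subtraction, while ITGA11 (-1.1, then -0.64) and ITGB5 (-0.88, then -0.54) did not, and the 2 that rose, ITGA6 and LAMA3, are higher in MDA-MB-231. ITGB3 was at 0.52 (adjusted p = 0.186) with siNRP1#3, and the direct difference was -2 (adjusted p = 9.4e-05). Collagen and matrix genes stayed largely out of the calls, with 0 of 25 falling and 1 rising, TNC, an extracellular matrix glycoprotein (1.37, adjusted p = 0.018), which missed the threshold without siNT replicate 1 (1.24) or 2 (1.26) or siNRP1#5 replicate 3 (0.99).

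In the TGF-beta and BMP list, 3 of 22 fell and 2 rose (median -0.05), where 8.53% of all genes tested fell and 10.1% rose. LTBP2, a latent TGF-beta binding protein, was at 73.4, 60.2 and 93.9 CPM in siNT and 31.5, 27.7 and 43.3 in siNRP1#5 (log2 fold change -1.15, SE 0.242, adjusted p = 0.00418). ID3, an inhibitor of helix-loop-helix factors induced by BMPs, was at 76.4, 113 and 118 CPM and 46.2, 40.4 and 59.1 (log2 fold change -1.08, SE 0.291, adjusted p = 0.0171). siNRP1#3 gave 1.04 for ID3 and 0.34 for LTBP2, and the siRNAs differed by -2.12 (adjusted p = 0.000506) and -1.49 (adjusted p = 0.00123). After subtraction LTBP2 kept its call and ID3 did not (adjusted p = 0.105), and ID3 also missed the threshold in 4 of the 6 fits without 1 library (-1.05 to -0.95, without replicate 2 of either group, siNT replicate 3 or siNRP1#5 replicate 1). TGFBR3, the betaglycan coreceptor, passed narrowly (0.89, adjusted p = 0.0469), with replicate 1 inside the range of siNT (10.3, 6.92 and 7.57 CPM against 9.14, 14.8 and 22).

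Genes of the claudin-low and mesenchymal state gave 2 falls and 8 rises among 17 (median 0.98), where 8.53% of all genes tested fell and 10.1% rose. The count moved with the admixed reads: after subtraction, where 7.12% of all genes fell and 4.65% rose, 1 of the list fell and 2 rose (median -0.13). The 2 were CDH2, N-cadherin, at 46.2, 43.8 and 51.4 CPM in siNT and 67.7, 82.2 and 129.6 in siNRP1#5 (log2 fold change 0.98, SE 0.213, adjusted p = 0.00522), and SNAI1, a repressor of E-cadherin, at 7, 7.56 and 8.45 CPM and 28.5, 17.1 and 26.1 (log2 fold change 1.64, SE 0.432, adjusted p = 0.0152). SNAI1 missed the threshold without siNT replicate 2 (1.62, adjusted p = 0.0566). CDH2 is almost absent from MDA-MB-231 (0.371 CPM in siNT), and shNRP1#5 raised it by the same log2 fold change (0.98, adjusted p = 0.0365). TWIST1 (-0.67) and TWIST2 (-0.83) passed as lower before subtraction only, and VIM (-0.51) and ZEB1 (0.1) did not pass.

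Several lists rose mainly where MDA-MB-231 is high, and the part of the admixed reads in each was not tested beyond the subtraction. For comparison, 10.1% of all genes tested rose and 8.53% fell before subtraction, and 4.65% rose and 7.12% fell after it. Of 20 interferon-stimulated genes, 18 are higher in MDA-MB-231 NT; 11 rose and 2 fell before subtraction (median 1.66), and 0 rose and 2 fell after it (median -0.02). Of 17 cytokine and NF-kB target genes, all 17 higher in MDA-MB-231, 8 rose before and 2 after it. IL6, an inflammatory cytokine, was at 5.98, 5.37 and 7.63 CPM in siNT and 54.4, 39.2 and 18.8 in siNRP1#5 (log2 fold change 2.56, SE 0.45, adjusted p = 0.00136), in the order of the marker share, and 171 CPM in MDA-MB-231 siNT. Of 26 G1 and S-phase genes 9 rose and 1 fell (median 0.85), and 7 rose and 0 fell after subtraction (median 0.76). CCND3, a D-type cyclin, was at 25.2, 38.6 and 43.5 CPM and 123, 110.3 and 117 (log2 fold change 1.7, SE 0.328, adjusted p = 0.00242, 1.3 after subtraction). IL6 and CCND3 were chosen after their values had been seen.

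Of 20 mitotic genes 4 rose and 0 fell against siNT (median 0.53, with 10.1% of all genes tested rising), and 2 rose after subtraction (median 0.73). Compared directly with siNRP1#3, 19 of the 20 were higher with siNRP1#5 (median 1.52), where 9.21% of all genes tested were higher and 8.92% lower. After subtraction 19 of the 20 were higher as well (median 1.75), where 6.56% of all genes were higher and 8.64% lower. With siNRP1#3 against siNT, 2 of the 20 fell and 0 rose (median -0.78), where 2.34% of all genes tested fell and 2.31% rose. CDK1, the kinase that drives entry into mitosis, was at 83.3, 86.4 and 31.7 CPM in siNT and 124, 258 and 374 in siNRP1#5 (log2 fold change 1.9, SE 0.413, adjusted p = 0.00523), with a mean of 50.4 CPM in siNRP1#3 and 84.8 in MDA-MB-231 siNT. KIF20A, a kinesin of cytokinesis, did not pass against siNT (0.05, adjusted p = 0.94), was lower with siNRP1#3 than with siNT (-1.56, adjusted p = 0.0154) and differed between the siRNAs by 1.61 (adjusted p = 0.00533). CDK1 and KIF20A were chosen after their values had been seen. Of the 26 G1 and S-phase genes, 15 were higher and 1 lower with siNRP1#5 than with siNRP1#3 (median 1.14), and 13 and 1 after subtraction (median 1.22).

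Of 20 MAPK feedback and immediate early genes, 6 rose and 2 fell (median -0.03), and after subtraction 4 rose and 0 fell. Of 19 hypoxia and glycolysis genes 5 rose and 0 fell (median 0.71), and 2 rose after subtraction. Over all genes tested 10.1% rose and 8.53% fell, and 4.65% rose and 7.12% fell after subtraction. All the genes of the MAPK, hypoxia and mitotic lists that rose before subtraction are higher in MDA-MB-231. Of 14 YAP and TEAD targets 3 rose and 1 fell, ARHGEF17, a guanine nucleotide exchange factor (-1.23, -1.37 after subtraction). Of 16 contractile and SRF targets 0 passed in either direction (median 0.24), and after subtraction 2 rose, TPM1 and TPM4. Of 16 lysosome and autophagy genes 2 fell and 2 rose. In the RNA interference machinery (13 genes, median 0.06) 2 rose and 1 fell, AGO1, an Argonaute protein, at 33, 25.4 and 26 CPM in siNT and 8.67, 19 and 14.2 in siNRP1#5 (log2 fold change -1.02, SE 0.266, adjusted p = 0.0145, and -0.77 with adjusted p = 0.0595 without siNRP1#5 replicate 1).

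The shRNA with the same target sequence gives samples that share none with the siRNA comparison and almost no MDA-MB-231 markers (0.1 to 0.243% in shNT and shNRP1#5). It called 186 of 19661 genes (0.946%), 132 lower (0.671%) and 54 higher (0.275%). Of the 1678 genes that fell with siNRP1#5, 71 were also called lower with shNRP1#5 (4.23%) and 0 were called higher; 1453 (86.6%) had a fold change below 0, as did 49.5% of all genes, and their median was -0.47. Of the 175 genes that rose and were not higher in MDA-MB-231, 9 were called higher (5.14%), 0 lower, and 144 (82.3%) had a fold change above 0 with a median of 0.47. Among the 12 genes that fell most, only ZMYND10 passed with the shRNA (-1.89, adjusted p = 0.0365). Some of the 12 were already low in shNT, with 0.195 CPM for MYBPH, 1.34 for CHI3L1 and 1.13 for CYTL1, which leaves little room for a fall there. Tested as a difference of effects, 168 genes (0.854%) differed between siRNA and shRNA, 32 of them lower (0.163%) and 136 higher (0.692%) with the siRNA.

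In the other lines, siNRP1#5 called 5518 of 18800 genes in MDA-MB-231 (29.4%) and 3590 of 20067 in SUM159PT (17.9%). These comparisons use other samples, but the HS578T siNRP1#5 libraries hold reads of both lines, so they are not fully separate from it. Of the genes that fell in HS578T, 1407 were tested in MDA-MB-231, where 349 were called lower (14.9% of all genes tested were) and 87 higher (14.4%; median -0.17), and 1502 in SUM159PT, where 390 were called lower (8.89% of all genes tested were) and 19 higher (9%; median -0.56). Of the 175 genes that rose, 132 were tested in MDA-MB-231, where 60 were called higher and 3 lower, and 166 in SUM159PT, where 55 were called higher and 2 lower. The change differed between HS578T and MDA-MB-231 for 3242 of 23416 genes (13.8%) and between HS578T and SUM159PT for 2979 (12.7%).

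Genes with a seed match for the siNRP1#5 guide stood slightly below the others. The match searched was GCACTTA, on the sense strand, in the 3′ UTR of each gene's most abundant transcript in siNT (GENCODE 44). Genes whose most abundant transcript has no annotated 3′ UTR were left out, and 803 of 12519 genes held the match (6.41%). Their median log2 fold change with siNRP1#5 was -0.09, against 0.08 without a match, a difference of -0.17. The same genes differed by -0.02 with siNRP1#3, and by -0.7 with siNRP1#5 in MDA-MB-231 and -0.7 in SUM159PT. Within bands of 3′ UTR length the HS578T difference ran from -0.49 in UTRs of 30 to 500 bases to -0.27 in those above 4000. It was -0.2 for genes not higher in MDA-MB-231, -0.3 for those higher there and -0.23 after subtraction, and -0.09 when each gene's longest annotated 3′ UTR was searched instead. With shNRP1#5 it was 0.09.

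By sample, measured against the mean of siNT, the difference was -0.33, 0.02 and -0.09 in siNRP1#5 and 0.26, -0.04 and -0.21 in siNT, so that the groups overlapped. The siNRP1#3 seed match, CACAAGA, varied in the same way among the siNT libraries (0.23, -0.05 and -0.18). The gap between the measures for both seeds in the same library was -0.3, -0.17 and -0.18 in siNRP1#5, 0.03, 0.01 and -0.03 in siNT, and 0.13, 0.15 and 0.19 in siNRP1#3, without overlap. It was -0.4, -0.61 and -0.51 in MDA-MB-231 siNRP1#5 and -0.12, -0.08 and -0.06 in HS578T shNRP1#5. MDA-MB-231 reads are present in the HS578T siNRP1#5 libraries, and their part in this gap was not tested. Among the named genes that fell, SYNC, ITGB3, ARHGEF17, JUNB and MCM7 held 1 match each and AGO1 held 2. The other 26 of the 32 whose most abundant transcript has an annotated 3′ UTR held 0.

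**Figure D5:**
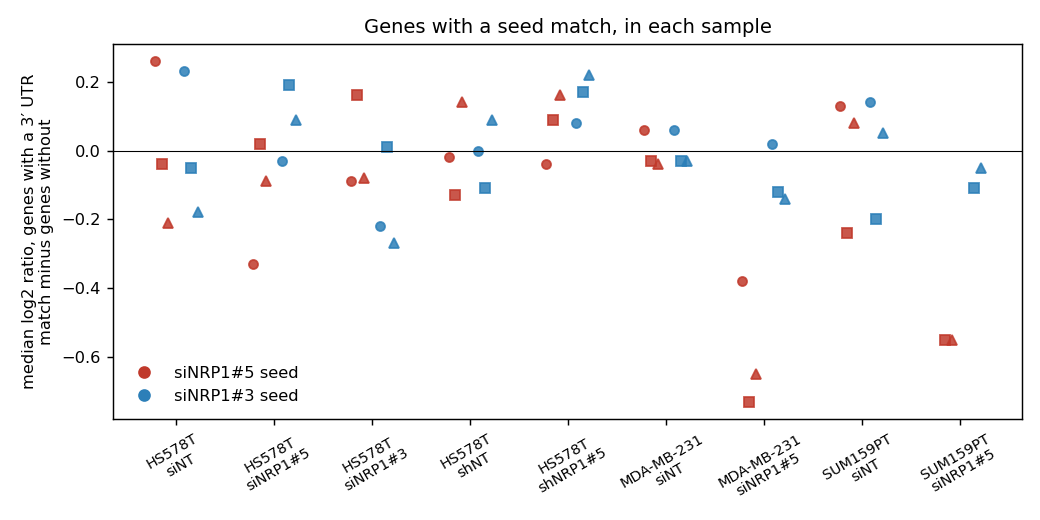
Median log2 ratio of genes with a 3′ UTR match to a seed minus that of genes without, for each library against the mean of its control group, for the siNRP1#5 and the siNRP1#3 guide seed. HS578T siNRP1#5 libraries lie between -0.33 and 0.02 for their own seed, inside the spread of siNT (-0.21 to 0.26) except replicate 1.

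The genes that moved also differed in kind from the genes tested. Those that fell had a median GC content of 55.4% in their most abundant transcript and a median siNT level of 14.6 CPM, against 50% and 6.82 CPM over all genes tested. Those that rose and were not higher in MDA-MB-231 had a median GC content of 46.5%, a median transcript length of 1419 bases against 1924, and 3.07% single-exon transcripts against 11.1%. Transcripts with retained introns held 9.39 to 9.8% of TPM in siNT and 9.31 to 9.61% in siNRP1#5, and these ranges overlapped.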

How the data were processed

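Poly(A)-enriched, strand-specific libraries (TruSeq Stranded mRNA) were sequenced from both ends on a DNBSEQ-G400. The authors trimmed the reads with Trim Galore 0.6.5, aligned them to GRCh38 with STAR 2.7.2b and quantified them with RSEM 1.3.3 against Ensembl 114, counting by strand. The deposited expected counts, for 78894 genes and for transcripts, are RSEM estimates without scaling for library size. The deposited TPM of genes and transcripts and the isoform percent (the percent that a transcript holds of the TPM of its gene) were made by the authors in the same step. The authors ran no test on the counts. Every column was assigned to a sample from its name (0 were not). Reads carried no molecular identifiers.

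Expected counts were rounded and analysed with edgeR 4.0.16 in R 4.3.3 (filterByExpr, TMM normalisation, robust glmQLFit and glmQLFTest), with 1 model over the 17 HS578T samples and 6 group means. Adjustment for 19661 genes tested followed Benjamini and Hochberg, with a threshold of 0.05. Differences of effects between lines came from 1 model over all 52 samples and 23416 genes. CPM in the text were TMM-normalised over the 52 samples. NRP1 transcript sums were tested by exact permutation of log2(TPM + 0.1). DESeq2 1.42.0, other size factors, no filter, fewer samples, each replicate left out, the replicate block and 3 subtractions of other-line profiles were tried as alternatives. In data simulated for siNRP1#5 against siNT over 19661 genes, the test called 123 of 200 genes changed by a log2 fold change of 1.5 (61.5%), and 5.38% of 130 calls were unchanged genes.

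Markers of another line had at most 0.5 CPM in HS578T NT controls and at least 20 CPM in NT controls of that line. For the subtraction, the group profile of that line against which a library's marker ratios varied least was scaled to the median marker ratio and taken off, with values below 0 set to 0. Seed matches were searched in transcripts of GENCODE 44, an earlier release than that of the deposited values on the same genome build, and microRNAs came from RefSeq (GRCh38.p14).

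The named genes were NRP1, the 12 genes that fell most and the 12 that rose most (past the threshold, at least 5 CPM in the higher group, groups not overlapping, and for rises a level in MDA-MB-231 NT not above that in HS578T siNT), and up to 4 called members of each of 18 gene lists with the lowest adjusted p that fell or were not higher in MDA-MB-231 NT, or with none, the 2 most abundant in siNT, 65 genes in all. Genes named outside this rule are pointed out, or given as values that did not pass or as markers. The samples to compare, the lists and the subtraction were chosen with earlier results of these data known. One member of the cholesterol and fatty acid list is not reported here and is left out of its counts.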

Additional observations from a re-analysis of the deposited data

Results flagged for a closer look

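Of the 65 named genes, those below had a change with siNRP1#5 in HS578T that differed from the change in another comparison by a test of the difference itself (edgeR's quasi-likelihood test, adjusted over all genes). Values are differences of log2 fold changes, and a negative value means that the gene was lowered more, or raised less, in HS578T by siNRP1#5.

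Against shNRP1#5 in HS578T, 4 genes differed, all lower with the siRNA and with adjusted p up to 0.048. They were CHI3L1 (-3.7), SYNC (-3.12), THAP7-AS1 (-2.28) and UFSP1 (-1.86), which thus fell with the siRNA by more than with the shRNA of identical sequence. CHI3L1 was at only 1.34 CPM in shNT, which leaves little room for a fall there, while SYNC was at 43.9, THAP7-AS1 at 9.46 and UFSP1 at 6.29 CPM.

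Against siNRP1#5 in MDA-MB-231, 21 genes differed, 12 lower and 9 higher in HS578T, with adjusted p up to 0.0479. Among genes that fell most in HS578T the differences were -7.09 for MYBPH, -3.92 for P2RY6, -3.17 for ZMYND10, -3.01 for CYS1, -2.68 for UFSP1, -2.43 for THAP7-AS1 and -2.26 for SYNC. Of the list genes that fell, PLXNA4 (-3.89), ITGA10 (-2.47), XPC (-1.02), PLXNA3 (-0.95) and CTSB (-0.83) were lower. Several of these genes were already low in MDA-MB-231 siNT, which leaves little room for a fall there. ZMYND10 was at 0.277 CPM, ITGA10 at 0.497, THAP7-AS1 at 0.621, PLXNA4 at 0.749 and P2RY6 at 0.934. MYBPH went from 0.301 CPM in siNT to 1.24 in siNRP1#5 there. NRP1 was higher by 2.25. The genes that rose in HS578T and were higher than in MDA-MB-231 were RABGGTB (2.29), TFPI (2.04), SIK1 (1.9), RSRP1 (1.86), TGFBR3 (1.57), HERPUD1 (1.22) and HSP90B1 (1.21), and MCM7, which fell in HS578T, was at 1.05.

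Against siNRP1#5 in SUM159PT, 19 genes differed, 11 lower and 8 higher in HS578T, with adjusted p up to 0.0399. The lower ones were MYBPH (-4.21), IL16 (-4.18), PLXNA4 (-3.76), CYS1 (-3.67), CYTL1 (-3.62), UFSP1 (-3.41), ID3 (-2.78), ZMYND10 (-2.3), THAP7-AS1 (-2.24), SYNC (-1.59) and ENO1 (-1.03). SUM159PT siNT held CYTL1 at 0.0516 CPM and CYS1 at 0.0756 CPM, both too low to be tested within that line, so their differences rest on the HS578T samples. PLXNA4 (0.695 CPM), ZMYND10 (0.809) and IL16 (1.01) were low there too. The higher ones were LIF (4.08), TNFAIP6 (3.62), SIK1 (2.47), TGFBR3 (1.75), NRP1 (1.67), MX2 (1.57), HSP90B1 (1.51) and HERPUD1 (1.34). PLXNA4, MYBPH, SYNC, CYS1, ZMYND10, THAP7-AS1 and UFSP1 were lower and NRP1, SIK1, TGFBR3, HERPUD1 and HSP90B1 higher in HS578T in both of these comparisons, which share the HS578T samples. The HS578T siNRP1#5 libraries hold MDA-MB-231 reads, and their part in these differences was not tested.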

How the results depend on the processing

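Of 57 named genes that passed the test, 26 kept their call under every alternative and 28 with each replicate left out, and 0 changed sign. JUN, JUNB, MCM7, LTBP1, IRF9, MX2 and TFPI missed the threshold in 5 of the 6 fits without 1 replicate, ATF4, ID3, TGFBR3 and XPC in 4, and TWIST1 in all 6. DESeq2, other size factors (RLE) and a fit without robust estimation changed no call among them. The fit with the replicate number as a block called 4185 genes (2000 lower, 2185 higher), gave NRP1 at -2.72, 4170 genes between the siRNAs and 238 between siRNA and shRNA, and lost TGFBR3 alone among the named genes. The correlations of same-numbered siNT and siNRP1#5 samples were -0.51, 0.09 and -0.12, and those of differently numbered ones ran from -0.47 to 0.51. With 3 samples in each group, these values cannot decide whether the numbers pair the samples.

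The counts depended on the reads of other lines. After subtraction of the MDA-MB-231 siNRP1#5 profile 2354 genes passed, and after that of the closest profiles 2262. Rises numbered 1202 after subtraction of the MDA-MB-231 siNT profile, 974 after that of the siNRP1#5 profile and 894 after that of the closest ones. Rises not higher in MDA-MB-231 numbered 317, 293 and 352 in the same order, and 273 without a filter on low counts. With one replicate left out, 2072 to 3070 genes passed, 959 to 1409 fell, 1080 to 1661 rose and 75 to 139 rose without being higher in MDA-MB-231; the NRP1 log2 fold change ran from -3.02 to -2.42, and the transmembrane and soluble transcripts from -2.88 to -2.3 and from -3.08 to -2.54. Falls moved by over 1.5 times without siNT replicate 2 (992), siNT replicate 3 (959), siNRP1#5 replicate 2 (989) or siNRP1#5 replicate 3 (970). Rises not higher in MDA-MB-231 did so without siNT replicate 1 (115), 2 (84) or 3 (75), or siNRP1#5 replicate 3 (80). With fewer samples in a group such counts also fall by construction.

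The seed difference moved from -0.17 to -0.49, -0.41 and -0.36 in the 3 shortest bands of 3′ UTR length, an alternative added, like the subtraction of the closest profiles, after seeing the data, and to -0.09 with the longest annotated 3′ UTR of each gene. The sign changed for genes that had not passed: with a replicate left out CDC20 ran from -0.03 to 0.48, ACTB from -0.05 to 0.55, FLNA from -0.23 to 0.28 and ENO1 from -0.16 to 0.24, FLNA was at 0.0 with only the 6 samples in the fit and ENO1 at -0.02 after subtraction of the MDA-MB-231 siNRP1#5 profile. The cause was not tested. Genes at a few CPM had the fewest counts, and both the reads of other lines and the number of libraries limit what can be said of rises.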
